A study of Mus musculus with 30 samples.

Results

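Lung branching is patterned by a small set of signals between the epithelium and the mesenchyme, and 10 of their genes were followed here across fetal lung and fetal liver. The genes were Fgf10, Fgfr2, Spry2, Shh, Ptch1, Bmp4, Wnt2, Wnt7b, Sox2 and Sox9. They were taken as a list by gene symbol, and they are 10 of the 18193 genes that the array measures with a probe set of a single symbol. They are read by 19 of its 45101 probe sets, a probe set being a group of short probes for a transcript. Where a gene has several sets, the brightest one on average across the 30 arrays stands for it. The others are given beside it for the tissue difference and for dose in lung.

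The study measured transcript levels in lung and liver of CD-1 mouse fetuses, an outbred stock, after the dams received perfluorooctane sulfonate (PFOS), a persistent fluorinated surfactant. The comparisons ask which transcripts of each organ differ with dose. PFOS was given by oral gavage as its potassium salt in 0.5% Tween 20 on gestation days 1 to 17, and fetal tissue was taken on gestation day 18. The daily dose series was 0, 5 and 10 mg/kg/day (called 0, 5 and 10 mg below), and the unexposed group is that of 0 mg with its vehicle. There were 5 litters per tissue and dose, with RNA of 3 fetuses pooled per litter and 1 array per litter, so no array shows a single fetus. Whether a lung and a liver sample share a litter is not stated in the labels. RNA had an integrity number of at least 8.

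FGF10 from the distal mesenchyme acts on the receptor FGFR2 in the epithelium and drives the outgrowth of new buds, and Sprouty proteins damp that signal from within the cell. Sonic hedgehog passes the other way, out of the epithelium to its receptor Patched on mesenchymal cells, while BMP and WNT ligands act between and within both layers. The epithelium itself splits into a proximal, airway-forming part marked by SOX2 and a distal, budding part marked by SOX9. On gestation day 18 the mouse lung is in the saccular stage, when terminal sacs widen and most branching has been laid down.

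Both tissues carried the markers of their labels. Sftpc, the surfactant protein of alveolar type 2 cells, averaged 13.58 in unexposed lung and 5.18 in unexposed liver on the log2 scale. Alb, the albumin of hepatocytes, averaged 12.25 in unexposed lung and 13.85 in unexposed liver, so that this liver transcript was also high on the lung arrays. The mean level of 10 cardiac muscle genes in lung ran from 7.82 to 9.91 over the litters at 10 mg and from 6.85 to 9.36 over those at 0 mg. Mean levels over all probe sets lay between 5.08 and 5.10 on every array. The quantile normalization within RMA makes them nearly equal, so they are no check of the samples. Within a group the correlation between arrays, over probe sets that are not independent of each other, was 0.990 to 0.995. The number of litters limits the precision, and in bulk tissue fewer cells of a type and less RNA per cell cannot be told apart.

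All 10 genes were higher in unexposed lung than in unexposed liver. Of 13856 genes tested between the tissues with limma, 83% differed at an adjusted p under 0.05 and 40.4% were higher in lung, which is the share the 10 of 10 is to be read against. Among the 8 genes that were also tested in liver, the widest difference was that of Shh and the narrowest that of Wnt7b. Sox2 and Fgf10 lay under the filter level in most or all livers. They entered the test, and so the count of 10, through lung alone, and their difference has only a lower bound. The median difference was 2.67 over the 10 genes, 2.22 with Sox2 and Fgf10 at their bound, and -0.04 over all genes tested. Lung and liver did not overlap on any of the 30 arrays for 8 of the genes, whatever the dose. The exceptions were Fgf10, whose lowest lung array lay 0.40 under its highest liver array, and Wnt7b, where that gap was 0.11. The share of all genes tested without such overlap was not counted. The 83% above is another measure, a test in unexposed litters, and does not stand in for that share. The 8 are a description and not a trait of these genes.

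The start of the gene is shown as sequence for Sox2 and Wnt2. They had the largest lung over liver differences as fitted among the members with a promoter in the RefSeq table of build GRCm38.p6. That place of Sox2 rests on liver values under the filter. At its lower bound, 1.68, Sox2 lay below Wnt2, Bmp4, Spry2, Fgfr2 and Ptch1. The table held 7 of the 10 genes, without Shh, Wnt7b and Sox9. Below are the 250 bases before each start, 5′ to 3′, on the gene's own strand. Sox2 lies at chr3:34649745-34649994 on the plus strand and Wnt2 at chr6:18030446-18030695 on the minus strand, and the capitals mark a GC box (GGGCGGGG) or a CCAAT box (CCAAT) read on either strand.
Sox2: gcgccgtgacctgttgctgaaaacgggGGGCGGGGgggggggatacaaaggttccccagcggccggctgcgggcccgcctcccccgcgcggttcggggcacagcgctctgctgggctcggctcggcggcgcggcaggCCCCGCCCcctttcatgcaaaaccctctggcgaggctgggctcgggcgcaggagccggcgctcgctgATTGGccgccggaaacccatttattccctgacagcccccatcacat
Wnt2: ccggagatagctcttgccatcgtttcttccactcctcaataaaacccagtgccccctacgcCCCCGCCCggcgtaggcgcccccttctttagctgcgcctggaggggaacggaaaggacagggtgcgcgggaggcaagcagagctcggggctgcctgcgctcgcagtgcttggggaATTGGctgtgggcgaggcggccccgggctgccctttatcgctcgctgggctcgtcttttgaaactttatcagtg

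Both sequences are rich in CG. In windows of 300 bases, which add the 50 bases after the start, Sox2 and Wnt2 each held 27 CpG dinucleotides, against a median of 7 over all 32851 promoters. The GC content was 66.3% for Sox2 and 65.7% for Wnt2, against a median of 52.7%. Each window held 2 GC boxes and 1 CCAAT box, and 1 of the GC boxes of Wnt2 lies in the 50 bases not shown. Over the 7 genes the GC box was in 5 promoters, those of Bmp4, Fgf10, Ptch1, Sox2 and Wnt2, and in 17.6% of all promoters. The CCAAT box was in 2 of the 7 and in 37.4% of all. The forkhead motif TGTTTAC was in that of Fgf10 alone and in 3.65% of all, while TATAAA and the GLI motif GACCACCCA were in none of the 7 windows and in 13.6% and 0.253% of all. These motifs were searched on both strands, and a match is a description of the letters only.

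**Figure D1:**
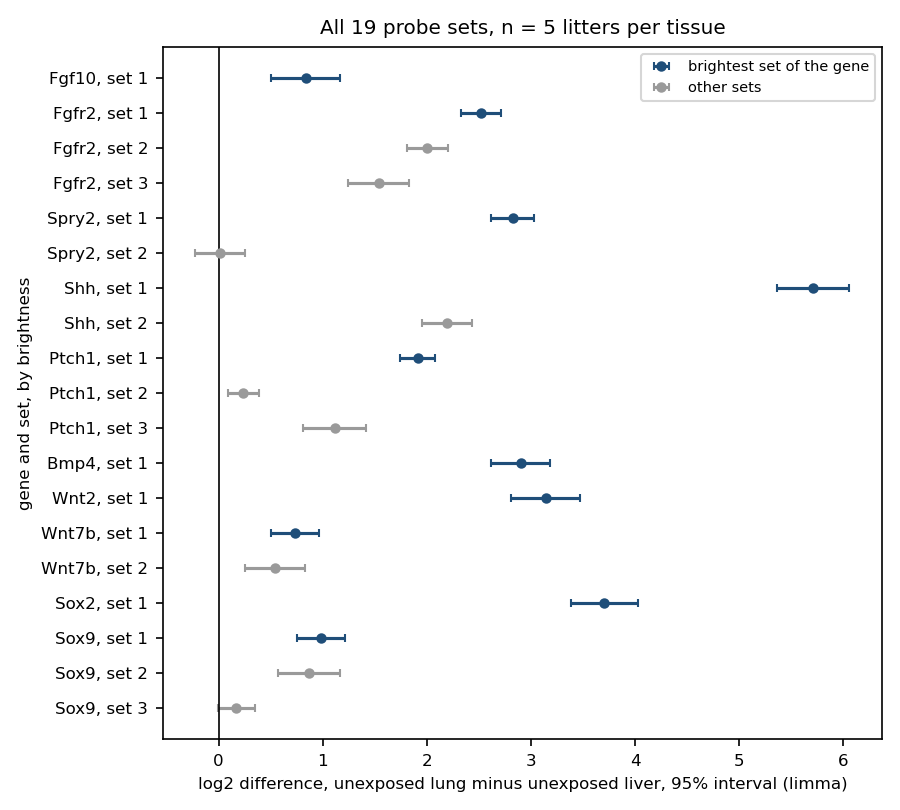
Log2 difference of unexposed lung minus unexposed liver (x axis) with its 95% interval from limma for each of the 19 probe sets, n = 5 litters per tissue. Dark points are the brightest set of each gene and grey points the others. The brightest sets run from 0.74 for Wnt7b to 5.71 for Shh, and the second Spry2 set and the third Sox9 set lie near 0.

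The genes of FGF signalling stood apart from liver by unequal amounts. Fgf10, the bud-inducing ligand, passed the filter on low levels, the 40th percentile of all probe sets of an array, on 14 of 15 lung arrays and on 1 of 15 liver arrays. It averaged 4.62 ± 0.34 in unexposed lung and 3.79 ± 0.40 in unexposed liver (SD, n = 5 each), with 4 of the 5 unexposed livers under the filter. With those raised to the filter level the log2 difference was at least 0.38. The measured difference was 0.84 (limma adjusted p = 3.55e-05). That p-value rests on liver values mostly under the filter, for a gene that entered the test through lung alone. Fgfr2, its receptor, averaged 9.74 ± 0.08 in unexposed lung and 7.21 ± 0.16 in unexposed liver, 5.74-fold higher in lung (log2 difference 2.52, SE 0.09, limma adjusted p = 2.75e-20). Its other 2 probe sets gave log2 differences of 2.01 and 1.54. Spry2, the feedback inhibitor, averaged 7.30 ± 0.07 in unexposed lung and 4.48 ± 0.21 in unexposed liver, 7.08-fold higher in lung (log2 difference 2.82, SE 0.10, limma adjusted p = 1.97e-20). Its second set, which passed the filter on no array, gave 0.02, and averaging both sets gave 1.42.

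Within lung, the litters of the 3 doses overlapped for all 3 FGF genes. Fgf10 (probe set 1420690_at) read 4.64, 4.49, 5.19, 4.30 and 4.50 in the litters at 0 mg, 4.70, 4.51, 3.99, 4.56 and 4.76 at 5 mg and 4.42, 4.24, 4.48, 4.69 and 4.81 at 10 mg. The highest litter was an unexposed one and the lowest was at 5 mg, and the difference from the unexposed litters was -0.10 at 10 mg (95% interval -0.45 to 0.26, limma adjusted p = 0.936). Without unexposed litter 3, the highest, that difference was 0.05. Fgfr2 (1433489_s_at) read 9.67, 9.69, 9.68, 9.82 and 9.82 at 0 mg, 9.65, 9.77, 9.68, 9.69 and 9.81 at 5 mg and 9.68, 9.60, 9.70, 9.78 and 9.54 at 10 mg. All 15 litters lay within a narrow band, and the difference at 10 mg was -0.08 (95% interval -0.20 to 0.05, limma adjusted p = 0.843). Spry2 (1436584_at) read 7.28, 7.26, 7.40, 7.21 and 7.33 at 0 mg, 7.05, 7.15, 7.26, 7.41 and 7.24 at 5 mg and 7.31, 7.35, 7.09, 7.26 and 7.21 at 10 mg. Its exposed litters spread on both sides of the unexposed mean, with a difference of -0.05 at 10 mg (95% interval -0.20 to 0.09, limma adjusted p = 0.906). The other Fgfr2 sets gave -0.12 and -0.07 at 10 mg, and 0.06 and 0.07 at 5 mg. The second Spry2 set gave 0.006 at 10 mg and -0.13 at 5 mg, with 0 of these 3 sets called.

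Sonic hedgehog gave the widest of the 8 tissue differences that were measured on both sides. Shh, the epithelial ligand, averaged 10.38 ± 0.08 in unexposed lung and 4.67 ± 0.26 in unexposed liver, 52.4-fold higher in lung (log2 difference 5.71, SE 0.17, limma adjusted p = 3.01e-22). The second Shh set, which passed the filter on 0 of the 5 unexposed livers, gave 2.19 in the same direction, and averaging both gave 3.95. Ptch1, the receptor and a transcriptional target of the pathway, averaged 9.73 ± 0.14 in unexposed lung and 7.82 ± 0.11 in unexposed liver, 3.76-fold higher in lung (log2 difference 1.91, SE 0.08, limma adjusted p = 1.18e-18). Its other sets gave 0.24 and 1.11, and averaging all 3 gave 1.09, so the size of this difference depended on the probe set.

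Neither hedgehog gene passed the test with dose in lung. Shh (1436869_at) read 10.43, 10.38, 10.27, 10.35 and 10.49 at 0 mg, 10.39, 10.42, 10.20, 10.34 and 10.16 at 5 mg and 10.14, 10.41, 10.42, 10.19 and 10.36 at 10 mg. Some litters of each exposed group reached the unexposed range and others fell below it, and the difference at 10 mg was -0.08 (95% interval -0.23 to 0.08, limma adjusted p = 0.875). Ptch1 (1428853_at) read 9.54, 9.84, 9.88, 9.69 and 9.70 at 0 mg, 9.82, 9.73, 9.61, 9.71 and 10.05 at 5 mg and 9.72, 9.62, 9.67, 9.64 and 9.66 at 10 mg. The litters at 10 mg lay close together, all 5 under the unexposed mean, with a difference of -0.07 (95% interval -0.24 to 0.10, limma adjusted p = 0.897). The highest Ptch1 litter of the study was at 5 mg, where the difference was 0.05 (95% interval -0.12 to 0.22, limma adjusted p = 0.999). The second Ptch1 set (1450824_at) went the other way at that dose, -0.14 (95% interval -0.28 to 0.003, unadjusted p = 0.055, limma adjusted p = 1 over all probe sets), with litters from 5.27 to 5.38 at 5 mg and from 5.37 to 5.61 at 0 mg. It gave -0.08 at 10 mg, and the third Ptch1 set gave -0.05 at 10 mg and 0.004 at 5 mg. The second Shh set gave -0.02 at 10 mg and 0.07 at 5 mg.

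**Figure D2:**
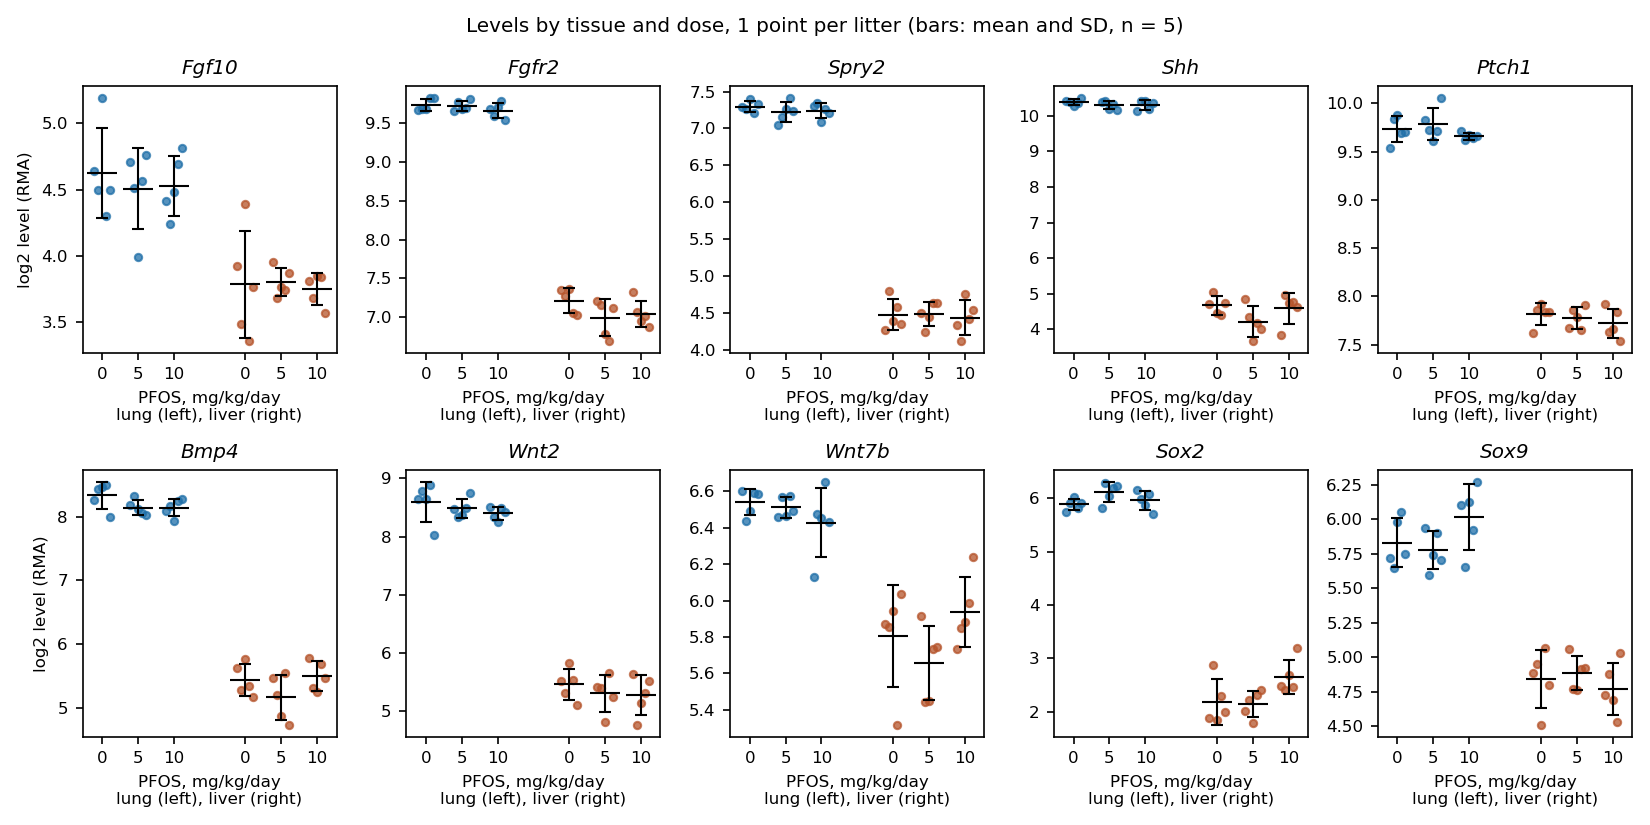
Log2 RMA level (y axis) of each gene by PFOS dose in mg/kg/day (x axis), lung in blue on the left and liver in orange on the right of each panel. Points are litters, and bars are the mean and SD of 5 litters. The tissues are apart in every panel except those of Fgf10 and Wnt7b, and the doses overlap in every lung panel. The share of all genes with tissues apart in this way was not counted.

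Bmp4, a growth factor of the distal tips and the mesenchyme beside them, had the largest shift of the 10 genes that was alike at both doses, and it did not pass the test. It averaged 8.34 ± 0.21 in unexposed lung and 5.43 ± 0.25 in unexposed liver, 7.48-fold higher in lung (log2 difference 2.90, SE 0.14, limma adjusted p = 2.07e-17). In lung, Bmp4 (1422912_at) read 8.27, 8.44, 8.47, 8.50 and 8.00 at 0 mg, 8.18, 8.32, 8.12, 8.05 and 8.03 at 5 mg and 8.09, 8.18, 7.93, 8.25 and 8.28 at 10 mg. All 10 exposed litters lay below the unexposed mean, yet unexposed litter 5 was lower than all but 1 of them, so the groups overlapped. The difference was -0.19 at 10 mg (SE 0.10, 95% interval -0.40 to 0.02, limma adjusted p = 0.745). It was -0.19 at 5 mg (SE 0.10, 95% interval -0.40 to 0.01, limma adjusted p = 0.999), and both differences share the same 5 unexposed litters. The mean level of 9 alveolar type 2 genes in lung ran from 11.17 to 11.54 at 10 mg, 11.31 to 11.59 at 5 mg and 11.43 to 11.61 at 0 mg. That of 9 lung mesenchyme genes ran from 11.34 to 11.54 at 10 mg, 11.26 to 11.6 at 5 mg and 11.39 to 11.67 at 0 mg. Their part in the Bmp4 values was not tested.

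The WNT ligands differed in how far lung stood above liver. Wnt2, made by the lung mesenchyme, averaged 8.60 ± 0.34 in unexposed lung and 5.45 ± 0.27 in unexposed liver, 8.83-fold higher in lung (log2 difference 3.14, SE 0.16, limma adjusted p = 1.38e-16). Wnt7b, made by the lung epithelium, averaged 6.54 ± 0.07 in unexposed lung and 5.81 ± 0.28 in unexposed liver, 1.67-fold higher in lung (log2 difference 0.74, SE 0.11, limma adjusted p = 8.76e-07). Its second set gave a log2 difference of 0.54.

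With dose, Wnt2 (1449425_at) read 8.64, 8.79, 8.64, 8.90 and 8.02 at 0 mg, 8.47, 8.33, 8.37, 8.50 and 8.76 at 5 mg and 8.50, 8.34, 8.24, 8.50 and 8.42 at 10 mg. The litters at 10 mg were all below the unexposed mean, while the lowest of all 15 was unexposed litter 5, the same litter that was lowest for Bmp4 in its group. The Wnt2 difference at 10 mg was -0.20 (SE 0.13, 95% interval -0.48 to 0.08, limma adjusted p = 0.817), and without that litter it was -0.34 (limma adjusted p = 0.428). Wnt7b (1420892_at) read 6.60, 6.44, 6.49, 6.59 and 6.59 at 0 mg, 6.46, 6.57, 6.46, 6.58 and 6.49 at 5 mg and 6.13, 6.47, 6.45, 6.65 and 6.43 at 10 mg. Litter 1 at 10 mg was the lowest and litter 4 of that group the highest of the 15, and the difference was -0.11 (95% interval -0.28 to 0.05, limma adjusted p = 0.817). Without litter 1 at 10 mg it was -0.04. The second Wnt7b set gave -0.21 at 10 mg and -0.19 at 5 mg.

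Both SOX factors were higher in lung than in liver. Sox2, the factor of the airway lineage, averaged 5.89 ± 0.10 in unexposed lung and 2.18 ± 0.42 in unexposed liver (limma adjusted p = 1.33e-18). Its liver level was under the filter on all 15 liver arrays, so Sox2 entered the test through lung alone. The p-value is that of the measured values, with liver under the filter. With liver raised to the filter level Sox2 was at least 3.20-fold higher in lung, a log2 difference of at least 1.68. Sox9, the factor of the distal tips, which is also made by cartilage and bile duct cells, averaged 5.83 ± 0.18 in unexposed lung and 4.84 ± 0.21 in unexposed liver, 1.98-fold higher in lung (log2 difference 0.99, SE 0.11, limma adjusted p = 4.44e-09). Its second set gave 0.87, and the third, which passed the filter on no array, gave 0.17.

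Sox2 and Sox9 were the only 2 members that lay above the unexposed mean at 10 mg, and neither passed the test. Sox2 (1416967_at) read 5.75, 5.91, 6.03, 5.83 and 5.92 at 0 mg, 5.82, 6.29, 6.05, 6.19 and 6.24 at 5 mg and 6.15, 5.98, 5.88, 6.09 and 5.72 at 10 mg. At 5 mg 4 of 5 litters were above every unexposed litter, and litter 1 was inside the unexposed range. The Sox2 difference was 0.23 at 5 mg (SE 0.10, 95% interval 0.03 to 0.43, unadjusted p = 0.030, limma adjusted p = 0.999) and 0.08 at 10 mg (SE 0.10, 95% interval -0.13 to 0.28, limma adjusted p = 0.905). Sox9 (1451538_at) read 5.72, 5.64, 5.98, 6.05 and 5.75 at 0 mg, 5.94, 5.60, 5.74, 5.91 and 5.71 at 5 mg and 6.11, 5.65, 6.13, 5.92 and 6.27 at 10 mg. At 10 mg 3 of 5 litters exceeded every unexposed litter, with a difference of 0.19 (SE 0.11, 95% interval -0.05 to 0.42, limma adjusted p = 0.787), and 0.12 without litter 5 at 10 mg. The second Sox9 set gave 0.28 at that dose (unadjusted p = 0.039, limma adjusted p = 0.768 over all probe sets) and -0.12 at 5 mg, and the third gave -0.07 and -0.03 at those doses. Between 10 and 5 mg Sox9 differed by 0.24 (SE 0.11, unadjusted p = 0.048, limma adjusted p = 1), and its second set by 0.40 (SE 0.13, unadjusted p = 0.0051, limma adjusted p = 1 over all probe sets). Over the same litters the mean level of the 8 cartilage genes tested in lung ran from 4.75 to 5.09 at 10 mg. It ran from 4.72 to 5.36 at 5 mg and from 4.82 to 5.09 at 0 mg. Matn1, Matn3, Col9a2 and Comp were under the filter on all lung arrays. With that cartilage level as a covariate, 0 of the 10 members were called, as without it. This is no test of the part of cartilage genes in the Sox9 values.

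In lung as a whole, 0 of the 10 genes passed the test at either dose. At 10 mg 7 of 12897 genes, 0.0543%, were called by limma and 891 had an unadjusted p under 0.05, of which 0 were members. The differences of the members ran from -0.20 for Wnt2 to 0.19 for Sox9, 2 above and 8 below 0, with a median of -0.08 against 0.01 over all genes tested. At 5 mg the share called was 0.0155%, and 596 genes had an unadjusted p under 0.05, of which Sox2 was the single member. The members ran from -0.19 for Bmp4 to 0.23 for Sox2. Between 10 and 5 mg limma called 0 genes, 0%, and 296 had an unadjusted p under 0.05, among them Sox9. A straight line over dose called 0.0543% of the genes and 0 members, with adjusted p from 0.720 to 0.928. The mean levels of the doses in lung were also ordered from highest to lowest. In none of the 10 genes did levels next to each other in that order differ by more than the larger of their 2 SDs. The highest and lowest levels did differ by more than that for Sox2 and Sox9. The difference was 0.230 for Sox2 between 5 and 0 mg, with SDs of 0.189 and 0.105. It was 0.239 for Sox9 between 10 and 5 mg, with SDs of 0.237 and 0.140.

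**Figure D3:**
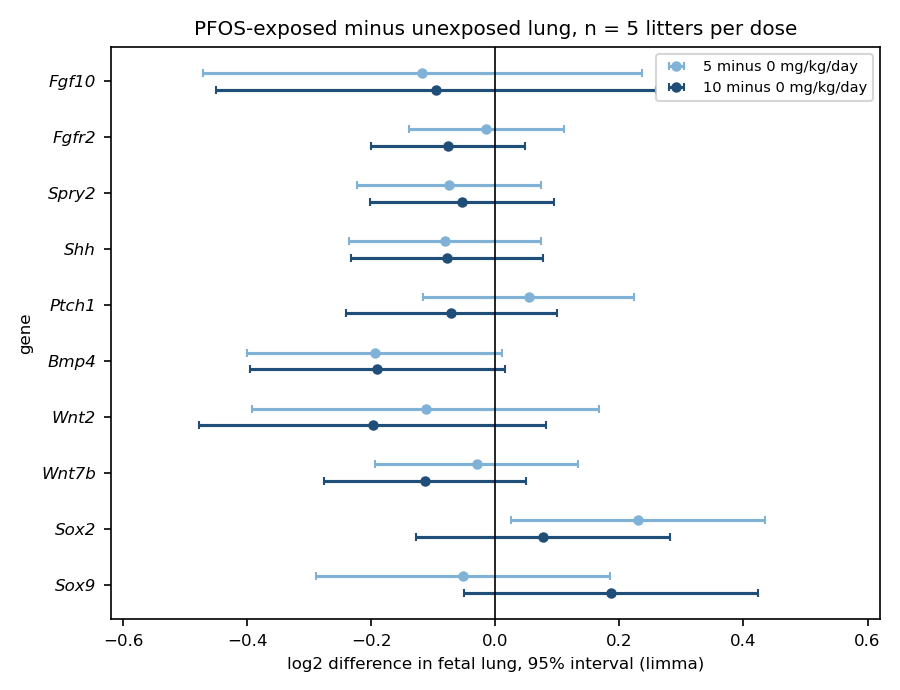
Log2 difference of PFOS-exposed minus unexposed fetal lung (x axis) with its 95% interval from limma for each gene, at 5 mg/kg/day (light) and 10 mg/kg/day (dark), n = 5 litters per dose. All intervals at 10 mg/kg/day include 0, and at 5 mg/kg/day that of Sox2, 0.03 to 0.43, does not before adjustment.

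The spread between litters set what could be seen, and it was unequal among the members. Fgf10 had a pooled SD of 0.29 within lung groups, larger than that of 93.6% of the genes tested, and Wnt2 one of 0.23, larger than 87.1%. Fgfr2 was among the steadiest, with 0.08, larger than that of 9.30% of genes. The median over all genes tested was 0.13. The intervals at 10 mg were accordingly narrowest for Fgfr2 and widest for Fgf10.

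In liver, 0 of the 8 members tested passed at either dose. Fgf10 and Sox2 were not tested there, since their levels passed the filter on 1 and 0 of 15 liver arrays. At 10 mg 10.5% of 13269 genes were called by limma and 3178 had an unadjusted p under 0.05, while the members ran from -0.19 for Wnt2 to 0.13 for Wnt7b with adjusted p from 0.406 to 0.886. At 5 mg 6.07% of the genes were called and 2626 had an unadjusted p under 0.05, of which 0 were members. Shh gave the largest liver difference at that dose, with 4.87, 4.34, 3.69, 4.18 and 4.01 in the litters at 5 mg, against 4.72, 5.05, 4.46, 4.40 and 4.73 in the unexposed litters. Of the exposed litters 1 lay inside the unexposed range and 4 below it, with a difference of -0.46 (SE 0.22, 95% interval -0.92 to 0.01, limma adjusted p = 0.259). The second Shh set gave 0.13. The brightest Shh set passed the filter on 2 of 5 livers at 5 mg and on 5 of 5 at 0 mg. The second set passed it on 1 of 5 at 5 mg and on 0 of 5 at 0 mg, so both values lie near or under the filter. The mean level of the 10 stomach genes tested in liver ran from 5.63 to 5.94 at 5 mg and from 5.76 to 7.02 at 0 mg, and that of 4 biliary epithelium genes from 5.16 to 5.60 at 5 mg and from 4.93 to 6.02 at 0 mg. Their part in the liver values of the members was not tested. Without the 3 unexposed livers of high Cym, a stomach enzyme gene, 0 members were called, as with them, so this is no test of that part.

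The change in lung was set against the change in liver for each member. At 10 mg 3.89% of 13856 genes differed between the tissues in their change and 2216 had an unadjusted p under 0.05 by limma, and 0 of the 10 members did either. The widest was that of Sox2, -0.39 (95% interval -0.85 to 0.07, limma adjusted p = 0.423), whose liver values lay under the filter. At 5 mg the share was 2.06%, with 1619 genes at an unadjusted p under 0.05 and again 0 members. The widest was that of Shh, 0.37 (95% interval -0.12 to 0.87, limma adjusted p = 0.596), with 2 of 5 livers at 5 mg above the filter.

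Most other genes of these pathways were also higher in lung than in liver, and 0 were called with dose in lung. The 6 lists held 145 genes besides the members, of which 133 were tested between tissues: 106 were higher in unexposed lung and 18 lower, 79.7% higher. Among FGF pathway genes 15 of 16 were higher in lung, led by the FGF-induced factor Etv5 (4.14). Among hedgehog genes 11 of 13 were higher and 2 lower, led by Hhip (4.38), a hedgehog-binding inhibitor. BMP genes gave 18 of 23 higher and 4 lower, led by Bmper (4.50), and WNT genes 25 of 37 higher and 7 lower, led by Nkd1 (4.27). Of the epithelial transcription factors 22 of 28 were higher and 3 lower, led by Irx3 (6.17). Of the mesenchymal ones 17 of 19 were higher and 2 lower, led by Tbx4 (6.31). These values in parentheses are log2 differences of unexposed lung minus unexposed liver.

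In exposed lung, 0 of the 127 other pathway genes tested were called at 10 mg and 23 had an unadjusted p under 0.05 by limma, beside 891 of the 12897 genes tested. The median change was -0.04 over these genes and 0.01 over all genes. The smallest p-values were those of FGF receptors: Fgfr3 averaged 8.98 ± 0.07 at 10 mg and 9.23 ± 0.06 at 0 mg, a difference of -0.26 (SE 0.06, limma adjusted p = 0.239). Fgfr4 averaged 8.31 ± 0.13 at 10 mg and 8.70 ± 0.10 at 0 mg, a difference of -0.39 (SE 0.09, limma adjusted p = 0.240). For the WNT receptor Fzd7 the difference was -0.27 (limma adjusted p = 0.305), and for the mesenchymal forkhead factor Foxf2 it was -0.39 (limma adjusted p = 0.331). Gli1, a transcriptional target of hedgehog signalling like Ptch1, averaged 5.06 ± 0.23 at 10 mg and 5.51 ± 0.33 at 0 mg, a difference of -0.45 (SE 0.16, limma adjusted p = 0.594). All 5 exposed litters lay below the unexposed mean for each of Fgfr3, Fgfr4, Fzd7, Foxf2 and Gli1. They lay above it for the hedgehog co-receptors Cdon (0.20, limma adjusted p = 0.643) and Gas1 (0.25, limma adjusted p = 0.687) and for the epithelial factor Elf3 (0.22, limma adjusted p = 0.625). All these genes were picked from these same litters by their small p-values. Litters on 1 side of the mean follow largely from that choice and are no further evidence. Among BMP genes Id2, a BMP target, differed by -0.32 and the antagonist Fst by 0.34, with limma adjusted p of 0.495 and 0.643. At 5 mg 0 of the 127 were called and 9 had an unadjusted p under 0.05 by limma, and the lowest adjusted p was 0.978. In liver at 10 mg 4 of 110 rose and 10 fell by limma, where 10.5% of all genes were called. In liver at 5 mg 4 rose and 4 fell, where 6.07% of all genes were called.

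Litter to litter, no pair of members passed a test of correlation in lung. Levels were taken as deviations from their dose mean over the 15 lung litters, and 45 pairs of members were compared. By permutation 0 pairs passed after adjustment over the 45, and 5 had an unadjusted p under 0.05, with r from -0.57 to 0.56. Shh and Wnt2 gave the lowest, r = -0.57 (permutation p = 0.018, adjusted 0.390) and rho = -0.76 (permutation p = 0.0015, adjusted 0.067), and r was -0.49 without the 2 litters farthest from the median of Shh. Bmp4 and Wnt2 gave the highest, r = 0.56 (permutation p = 0.030, adjusted 0.390) and rho = 0.28 (permutation p = 0.313). Without the 2 litters farthest from the median of Bmp4 it was -0.07, so that relation rests on those litters.

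Sox2 correlated across lung litters with the mean of 8 airway genes, a relation that rested on 1 of them, Scgb3a1. Each member was also set against the mean level of 6 marker lists of lung litters, and 1 of the 60 pairs passed for r after adjustment, that of Sox2 with 8 airway epithelium genes (Scgb1a1, Scgb3a1, Scgb3a2, Cyp2f2, Foxj1, Aldh1a7, Tppp3 and Dnah9). Here r was 0.80 (permutation p = 0.00017, adjusted 0.010) and rho was 0.79 (permutation p = 0.00077, adjusted 0.046), over 15 litters. Without the 2 litters farthest from the median airway level r was 0.62, and without litter 1 at 5 mg alone, which had the lowest value of both relative to its dose mean, it was 0.70, a setting chosen after seeing the data. The relation rests on Scgb3a1, a secretoglobin of secretory airway cells, which ran from 6.44 to 11.51 over the lung arrays while each of the other 7 genes spanned 0.67 or less. In a split chosen after seeing the data, Sox2 with Scgb3a1 alone gave r = 0.82 (permutation p = 4e-05) and rho = 0.83 (permutation p = 0.0002), and r = 0.83 without the 2 litters farthest from its median. With the mean of the 7 other airway genes it gave r = 0.28 (permutation p = 0.320) and rho = 0.35 (permutation p = 0.206). The p-values of this split are unadjusted. Scgb3a1 was picked from these same litters, so its p-values are no further evidence. Sox2 with the hepatocyte genes gave r = -0.72 (permutation p = 0.0024, adjusted 0.071) and rho = -0.75 (permutation p = 0.0015, adjusted 0.046). For Ptch1 with the lung mesenchyme genes r was -0.64 (permutation p = 0.0097, adjusted 0.146) and rho -0.74 (permutation p = 0.0024, adjusted 0.048). The permutations took no account of the dose means removed from the levels, so all these p-values tend to be too small. Adjusted values just under 0.05 are therefore not firm. Groups of 5 litters are too few for a value within a dose. The airway level itself ran from 8.87 to 9.54 at 5 mg and from 9.28 to 9.48 at 0 mg, and its part in the Sox2 values at 5 mg was not tested.

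**Figure D4:**
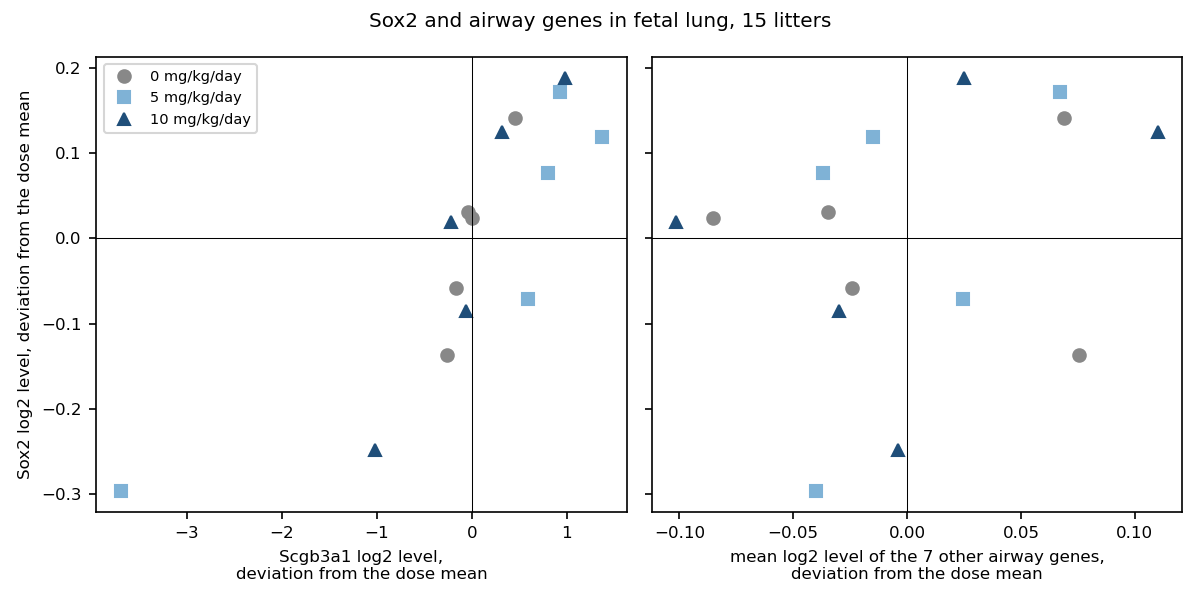
Sox2 log2 level (y axis) against the Scgb3a1 log2 level (left) and against the mean log2 level of the 7 other airway epithelium genes (right) in 15 fetal lung litters, all as deviations from the mean of their dose, with a symbol per dose. The points rise together on the left (r = 0.82) and scatter on the right (r = 0.28).

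As a description, 12376 genes tested in lung were ranked by how closely their deviations over the 15 lung litters followed each member, with no p given. Muc5b was most like Sox2 (r = 0.92), followed by Plod2 (0.905) and Mycl (0.89). Rpl38 was most like Ptch1 (0.91), Ttbk1 most like Wnt7b (0.90), Bag2 most like Shh (0.88) and Iqgap1 most like Fgf10 (0.88). The highest r was 0.87 for Wnt2 with Hinfp, 0.86 for Sox9 with Ankdd1b, 0.86 for Bmp4 with Rbm43, 0.85 for Fgfr2 with St3gal4 and 0.83 for Spry2 with Krt88. These levels share the arrays and their normalization. Each r is the highest picked from 12376 genes over 15 litters, where r this high can arise between unrelated genes.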

How the data were processed

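Transcript levels were read on Affymetrix mouse expression arrays in 30 samples, 15 per tissue. Per the submitters' processing notes, the authors made the deposited log2 levels with RMA, a method of background correction, quantile normalization and summary over the probes of each set. Its version, and whether lung and liver were normalized jointly, is not given in the sources used here. RMA compresses the changes of dim sets, and its levels are not comparable between probe sets.

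Symbols came from the platform annotation: 34945 of 45101 probe sets had 1 symbol, 932 several and 9160 none, and 64 were controls. Tests in a tissue took genes whose set lay above the 40th percentile of its array (log2 4.16 to 4.23) on at least 5 arrays, and tests between tissues took genes of either. The limma package (3.58.1, R 4.3.3) fitted a mean per dose within a tissue. The tissue comparisons used 1 fit of all 30 arrays. Two-sided p-values were Benjamini-Hochberg adjusted over all genes tested, and a call is an adjusted p under 0.05. The scripts were tested on simulated data. Correlations used 100000 permutations with numpy 2.4.6.

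The members and lists were chosen with earlier results of these data known, and 266 of 283 list entries matched a gene. Besides the members, the text names from the genes given by a rule: per list the 3 of smallest p in each lung comparison, the 3 largest called tissue differences, the 3 genes most like each member, and marker genes. Promoters are from RefSeq. Alternatives were other filters, normalizations, probe set choices, variance models, array weights, samples in the fit, covariates, the replicate number as a block, and leaving out each litter. Figures were drawn with matplotlib 3.10.9.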

Additional observations from a re-analysis of the deposited data

Results flagged for a closer look

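In 3 of 60 groups of 5 litters, 1 litter lay far from the other 4 relative to the group's range, where chance flags about 1 in 20 groups. All 3 were in liver and each was the lowest of its group. Litter 1 at 10 mg/kg/day read 3.83 for Shh, a value under the filter, against 4.64 to 4.96 in the other 4 litters. Without it the liver difference of Shh at 10 mg/kg/day was 0.11 in place of -0.08, neither of them called. Unexposed litter 1 read 7.62 for Ptch1, against 7.84 to 7.93 in the others. Unexposed litter 4 read 5.32 for Wnt7b, against 5.85 to 6.04 in the others. No lung group of a member was flagged.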

How the results depend on the processing

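Over every alternative run, 0 members were called in each dose comparison and in the comparison of changes between tissues, and 10 were called between unexposed lung and liver, except 9 with the stricter filter, where Fgf10 was no longer tested. The replicate block also gave 10. Same-numbered lung and liver arrays deviated together at a mean r of 0.14, 0.18 and 0.20 at 0, 5 and 10 mg. Of the 15, 12 matched best with their own number, a hint from the data that the labels do not settle. For 3 of the pairs r was not over 0.1, and the labels state no pairing, so the main comparison was left unpaired. Its SEs and p-values therefore take no account of litters that lung and liver may share. The lowest adjusted p of a member over the alternatives was 0.428 for lung at 10 mg and 0.740 at 5 mg, and 0.177 at 10 mg and 0.105 at 5 mg for liver. Counts over all genes moved more: limma called 7 genes in lung at 10 mg, with 3 to 13 over the alternatives, and 2 at 5 mg, with 2 to 4. In liver it called 1395 at 10 mg, with 540 to 1932, and 805 at 5 mg, with 295 to 1132. The slope over dose in lung gave 7, with 3 to 11. Between the tissues' changes 539 were called at 10 mg, with 367 to 728, and 285 at 5 mg, with 175 to 395.

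Changes near 0 turned sign in some settings. With the sets of a gene averaged, lung at 5 mg gave 0.040 for Fgfr2 and -0.027 for Ptch1, and liver at 10 mg gave -0.017 for Wnt7b. Without the 3 unexposed livers of high Cym, liver gave 0.011 for Spry2 and 0.030 for Shh at 10 mg, and 0.045 for Ptch1, 0.060 for Wnt7b and -0.089 for Sox9 at 5 mg. Leaving out 1 litter each time gave these ranges. For lung, Fgf10 ran from -0.18 to 0.046 at 10 mg, and at 5 mg Fgf10 ran from -0.20 to 0.024, Fgfr2 from -0.037 to 0.0073, Ptch1 from -0.014 to 0.098 and Sox9 from -0.099 to 0.0037. For liver at 10 mg, Spry2 ran from -0.12 to 0.039, Shh from -0.17 to 0.11 and Bmp4 from -0.0036 to 0.15. At 5 mg, Spry2 ran from -0.040 to 0.091 and Sox9 from -0.038 to 0.10. These signs change because fewer litters or other probe sets enter the value. In settings chosen after seeing the data, the correlation of Sox2 with the airway genes was 0.28 without Scgb3a1, in place of 0.80.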
